A study of Mus musculus with 12 samples.

Results

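In brain tissue of injured mice, 126 genes were at least halved 7 days after traumatic brain injury (TBI), out of 16782 genes with a mean level of at least 0.5 CPM in sham mice and 35697 genes in the table. CPM is the count of a gene divided by the total count of its library, times 1000000. A gene was a member if its mean CPM in sham mice was at least 0.5, its mean in TBI mice was at most 50% of that, and the highest TBI mouse lay below the lowest sham mouse. In all, 129 genes met these numbers, which was 0.769% of the genes at 0.5 CPM or more. Of them, 3 (Hbb-y, Hba-x and Alox12b) were set aside by their symbols. The rule also sets aside the potassium channel, protocadherin, glutamate receptor and GABA receptor families. The members were thus chosen by their sham and TBI levels, so these levels are given as a description with no test.

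The mice were adult male wild-type C57BL/6J. Injury was a controlled cortical impact (CCI), in which a piston strikes the exposed cortex, and sham mice had the surgery without the strike. Libraries dated 2018 came from 3 sham mice and 3 TBI mice, and libraries dated 2022 came from 3 TBI mice and 3 TBI mice given zileuton, an inhibitor of 5-lipoxygenase, which was dissolved in oil and injected intraperitoneally each day at a dose of 10 mg per kg. The labels call the control mice of 2022 only TBI and do not name an injection of the solvent, whereas the study describes a vehicle group. Tissue was taken 7 days after TBI, except that the source labels of 2 zileuton mice give 8 and 9 days where their library names give 7. Each mouse was 1 library of bulk RNA, so a lower level can mean fewer cells of a type or less RNA per cell, and these cannot be told apart. The labels call the tissue brain, the study describes it as pericontusional, and the hour of collection is not given in the sources used here. The 2018 libraries held 42929862 to 48684674 counts and the 2022 libraries 27845562 to 35453257. The 2 tables were counted in different ways, so groups were compared only within a table. The levels of Fdps and 1700047I17Rik2 alone are set side by side across the tables, to mark these genes as uncertain.

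Some well known members belong to 3 groups of genes, which are introduced here as background. Immediate early genes are transcribed within minutes of synaptic activity without new protein synthesis. Clock genes and their output genes follow the daily cycle set by CLOCK and BMAL1, which bind DNA at the E-box, and the PER and CRY proteins repress that pair. The genes of sterol synthesis are switched on by SREBP-2 when the sterol content of the endoplasmic reticulum is low.

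Members were mostly genes of low level. Their mean sham levels had a median of 1.196 CPM and ran from 0.502 to 332 CPM, and 89 of the 126 were under 2 CPM. The mean TBI level was a median of 42.3% of sham. It was below 25% in 7 members, from 25% to 40% in 46 and from 40% to 50% in 73. Among all genes with a mean sham level of 0.5 to 1 CPM, 3.30% met the rule, and among genes at 20 CPM or more 0.126% did. By comparison, 1888 genes at least doubled without overlap between the groups, which was 10.8% of the 17436 genes with a mean TBI level of at least 0.5 CPM. A further 44 genes were at 50% of sham or less in the mean but overlapped between the groups. Just inside the limit of the rule were AC124108.1 at 49.8% and Lemd1 and Spata32 at 49.7% each. Just outside it were Gm42456 at 50.1%, Col6a4 at 50.3% and Gucy1a2 at 50.4%.

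**Figure D1:**
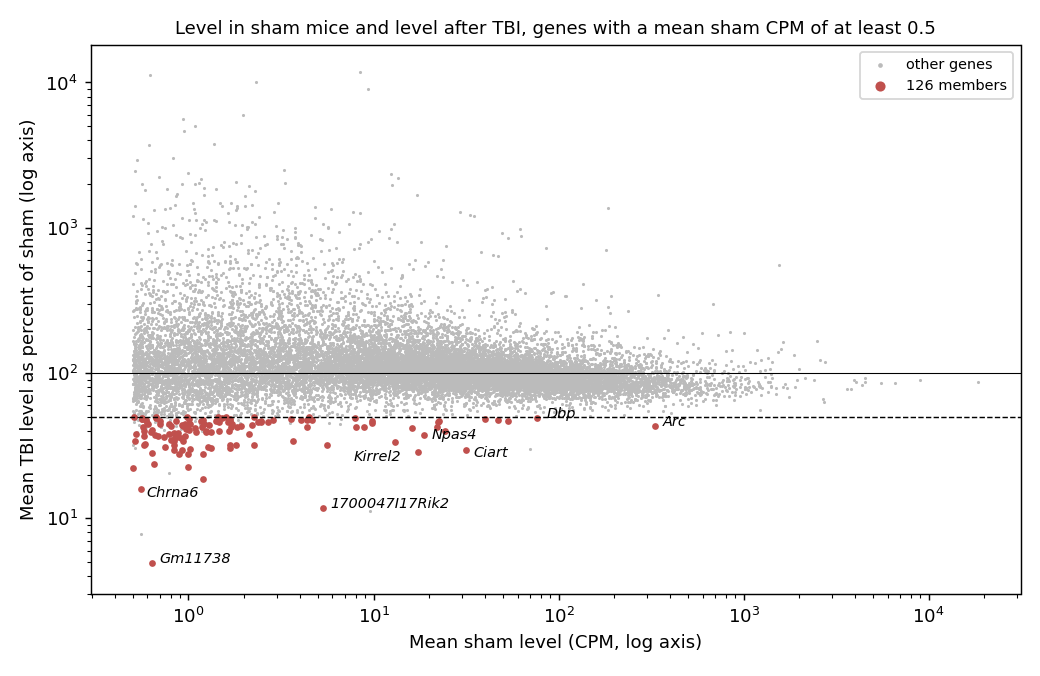
Mean sham level in CPM (horizontal log axis) against the mean TBI level as percent of sham (vertical log axis) for genes with a mean sham CPM of at least 0.5, with the 126 members in red and all other genes in grey. The dashed line marks 50%, and members crowd at the low end of the level axis, where 89 of them lie below 2 CPM, while Arc stands alone at 332 CPM.

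The choice of members rested on 3 mice a group. Without each of the 6 mice in turn the rule found 163 to 218 genes, and 62 of the 126 members met it under every one of the 6 omissions. An omission can only loosen the part of the rule on overlap, so no member can fail that part. It rechecks only the ratio of the means and the sham minimum, and it can add genes because fewer mice have to be apart. Another 33 met it under 5 of them and 31 under 4 or fewer. Among the 37 members at 2 CPM or more, 16 met it under all 6. With FPKM in place of CPM the rule found 120 genes, of which 75 were members.

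Clock genes made up 3 of the members. Of 17 clock genes in the list, all with a sham mean of at least 0.5 CPM, Per2, Ciart and Dbp were members. Ciart (ENSMUSG00000038550), which encodes CHRONO, a repressor of CLOCK and BMAL1, was at 28.2, 32.9 and 33.3 CPM in the sham mice and at 6.37, 10.0 and 11.3 CPM in the TBI mice. Its mean was 29.3% of sham and lay between 26.1% and 33.9% without any 1 mouse. The lowest sham value of Ciart was more than double the highest TBI value, the widest such gap among the 14 members at 10 CPM or more.

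The stretch before the start of Ciart is shown because it carries the E-box letters 3 times. It spans chr3:95882229-95882478 on GRCm38.p6, minus strand, from RefSeq, with each CACGTG in capitals.
Ciart: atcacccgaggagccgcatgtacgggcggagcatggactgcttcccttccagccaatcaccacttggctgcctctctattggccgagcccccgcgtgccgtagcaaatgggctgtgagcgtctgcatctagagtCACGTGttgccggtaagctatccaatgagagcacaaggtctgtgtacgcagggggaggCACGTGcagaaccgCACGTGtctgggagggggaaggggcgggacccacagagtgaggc
The copies begin 116, 58 and 44 bases before the annotated start. CACGTG reads the same on both strands, was searched in the 250 bases before each start, and was present at least 3 times in 20 of 32851 promoters of the RefSeq table (0.0609%). Of 126 members, 62 had a promoter there, 74 promoters in all, and 7 of these (9.46%) held CACGTG at least once, against 7.85% of promoters of genes at 0.5 CPM or more and 6.02% of all promoters. Among the 20 promoters that the table gives for 15 clock genes, 6 held it. Of the other clock members, Dbp held it 0 times and Per2 had no promoter in the table. A match is a description of letters, and binding was not measured here.

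Per2, a repressor at the centre of the clock, was at 42.8, 62.7 and 54.5 CPM in sham and at 24.4, 23.8 and 26.6 CPM in TBI mice. The 3 TBI values lay within 3 CPM of each other, whereas the sham values were spread widely. Its mean was 46.8% of sham, and 51.3% without sham mouse 2, which had the highest value. Dbp, a transcription factor of the PAR bZIP family driven by the clock, was at 65.0, 75.9 and 89.1 CPM in sham and at 25.2, 52.2 and 35.7 CPM in TBI mice, 49.1% in the mean. Dbp met the rule under only 3 of the 6 omissions, and its mean was 57.3% of sham without TBI mouse 1. Dbp shares exon bases with Sphk2, which was at 141% of sham.

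The other 14 clock genes had an edgeR test across all genes. Of these, 9 were lower and 1 was higher in TBI mice at an adjusted p under 0.05, where 11.2% of the 19536 genes tested were lower and 16.8% higher. Nr1d1, which encodes the repressor REV-ERB alpha, fell by 0.95 on the log2 scale (SE 0.0858, adjusted p = 9.28e-05, edgeR), close to the limit of the rule. Nr1d2 fell by 0.71 (SE 0.0748, adjusted p = 0.000219, edgeR). Per1 fell by 0.74, Bhlhe40 by 0.71, Per3 by 0.67, Cry2 by 0.54, Hlf by 0.50, Tef by 0.47 and Cry1 by 0.45, all past the adjusted threshold in edgeR. The one that rose was Nfil3, a repressor that competes with Dbp for the same DNA sites, by 0.82 (SE 0.233, adjusted p = 0.0300, edgeR), a call that was lost without sham mouse 1 or 3 or TBI mouse 1 or 3, and with a replicate block. Arntl, which encodes BMAL1, had a log2 difference of 0.31 (SE 0.185, adjusted p = 0.256, edgeR), Clock of -0.17 and Npas2 of -0.01, and none of these passed.

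Immediate early genes gave 2 members out of 41 in the list. Arc (ENSMUSG00000022602), whose protein forms capsids and removes AMPA receptors from synapses, was the member with the highest level. It stood at 243, 539 and 214 CPM in sham and at 186, 116 and 127 CPM in TBI mice. Sham mouse 2 stood far above the other sham mice. Without it the TBI mean of Arc was 62.7% of sham, in place of 43.1%, so its membership rested on that mouse. Npas4, a transcription factor induced by neuronal calcium influx, was at 18.8, 23.2 and 14.1 CPM in sham and at 9.14, 6.42 and 5.50 CPM in TBI mice. Its mean was 37.5% of sham and stayed between 31.9% and 42.6% without any 1 mouse.

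The remaining 39 immediate early genes moved in both directions. At an adjusted p under 0.05 in edgeR, 14 were lower and 5 were higher in TBI mice. Without TBI mouse 2, 9 were lower and 5 higher, and without sham mouse 2, 10 were lower and 4 higher. Sham mouse 2 was the highest for the whole list, Arc included. The list summed to 2639, 3485 and 2713 CPM in sham and to 1985 to 2242 CPM in TBI mice. Over all 19536 genes tested, 11.2% were lower and 16.8% higher. Egr1, a zinc finger transcription factor, fell by 0.92 on the log2 scale (SE 0.154, adjusted p = 0.00264, edgeR), Egr2 by 0.92, Nr4a1 by 0.88 and Klf10 by 0.78. Bdnf, the gene of a neurotrophin, fell by 0.60. Those that rose were Maff (1.30), Gadd45g (1.14), Pim1 (0.94), Klf2 (0.82) and Jun (0.56).

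Sterol genes formed the third group. This list of 21 genes was drawn up after the members' values had been seen, so its count describes them and nothing more. It held 3 members. Idi1, the isomerase that makes dimethylallyl diphosphate, was at 22.1, 23.2 and 22.8 CPM in sham and at 11.4, 11.2 and 9.25 CPM in TBI mice. Its mean was 46.8% of sham, it met the rule under all 6 omissions, and its sham values were close together. Stard4, a sterol carrier that moves cholesterol between membranes, was at 37.7, 40.7 and 42.0 CPM in sham and at 20.6, 21.3 and 16.5 CPM in TBI mice, 48.5% in the mean and 52.3% without TBI mouse 3.

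Fdps, which encodes farnesyl diphosphate synthase, is uncertain. Its sham mean was only 0.934 CPM in the 2018 table, against 29.6 CPM in TBI mice of the 2022 table, and its TBI mean was 0.403 CPM. The gene has near-identical pseudogene copies, and how the reads were shared among them in the 2018 table was not tested.

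Among the other 18 sterol genes, 15 were lower and 0 were higher in TBI mice at an adjusted p under 0.05 in edgeR. Of the 19536 genes tested, 11.2% were lower and 16.8% higher. At an unadjusted p under 0.05 edgeR gave 15 lower and 0 higher, and DESeq2 gave 15 lower and 0 higher at its adjusted p. As the list was drawn up after the members' values were seen, these calls describe it and nothing more. The median log2 difference of these 18 was -0.60, against 0.02 over all genes tested. Msmo1 fell by 0.95, Insig1 by 0.93, Fdft1, which encodes squalene synthase, by 0.92 and Hmgcs1 by 0.85. Srebf2, the gene of SREBP-2 itself, fell by 0.60 (SE 0.0674, adjusted p = 0.000294, edgeR). Ebp (0.28), Mvk (-0.21) and Pmvk (-0.10) did not pass.

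**Figure D2:**
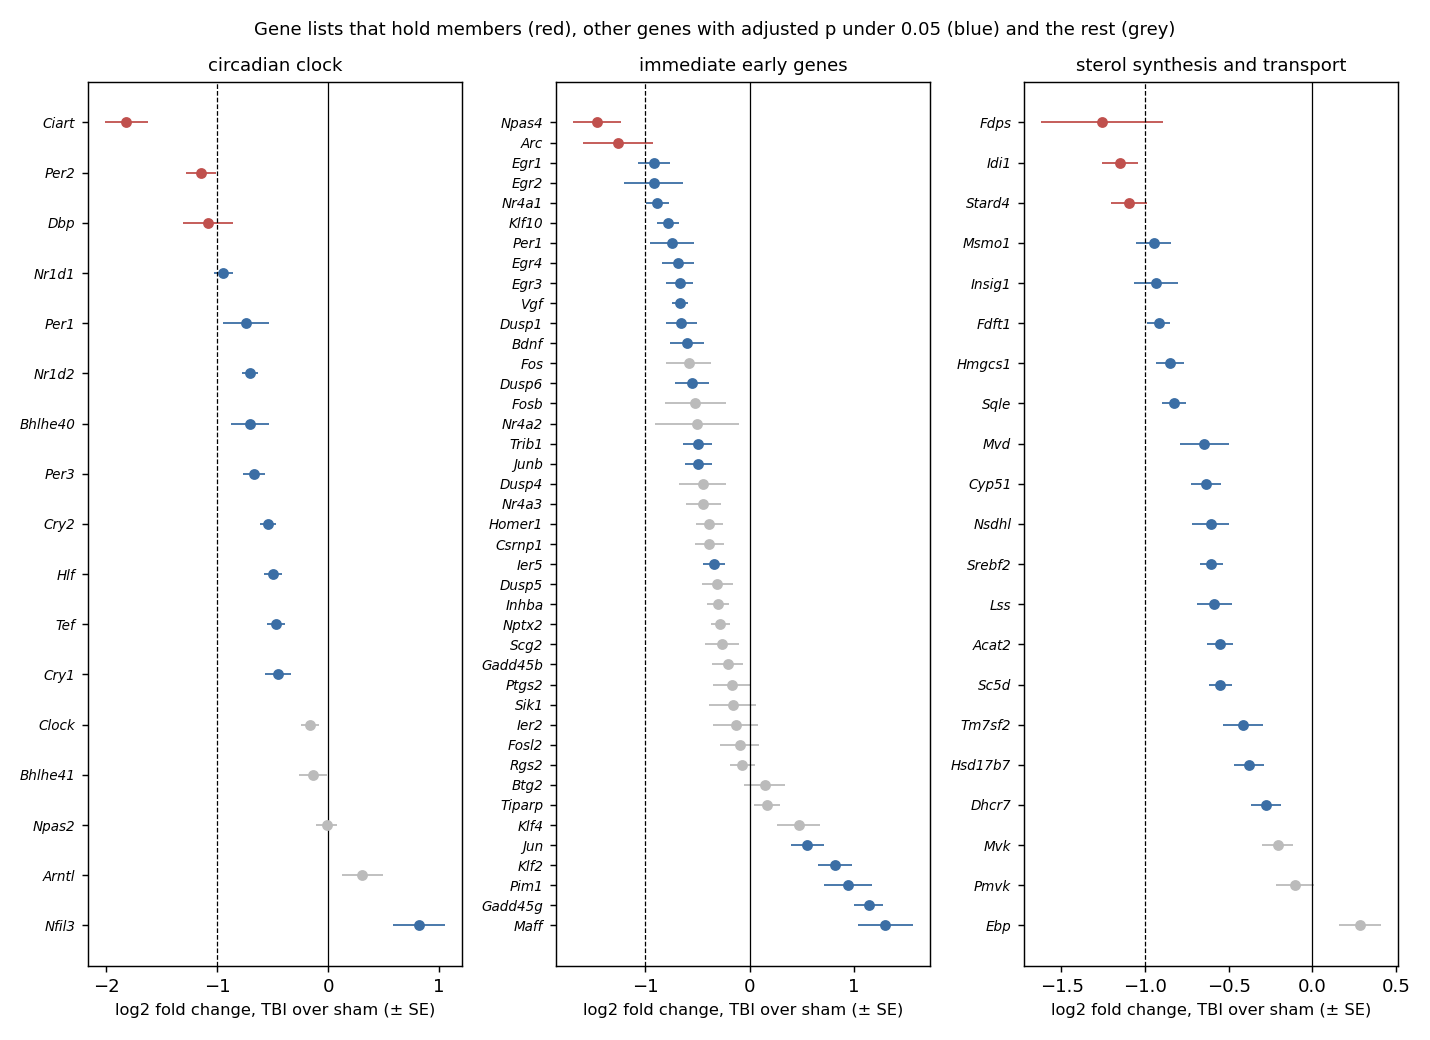
Log2 fold change of TBI over sham with its standard error (horizontal axis, edgeR) for the genes of 3 lists, with members in red, other genes with an adjusted p under 0.05 in blue and the rest in grey. The dashed line marks a log2 fold change of -1, and in the sterol panel 15 of the 18 genes that are no members are blue and left of 0.

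Several other abundant members belonged to no list. Camk1g, a calmodulin-dependent kinase of neurons, was at 47.8, 49.8 and 43.8 CPM in sham and at 19.7, 22.1 and 25.8 CPM in TBI mice. Hkdc1, a hexokinase-like protein, was at 23.8, 17.8 and 25.7 CPM in sham and at 8.36, 9.14 and 13.5 CPM in TBI mice. Each of these genes met the rule under 5 of the 6 omissions and was above 50% without TBI mouse 1. Kirrel2, an adhesion protein of the nephrin family, was lower still after TBI, at 13.9, 20.6 and 17.6 CPM in sham and at 3.70, 4.97 and 6.34 CPM in TBI mice, 28.8% in the mean. Gucy2g, a membrane guanylyl cyclase, was at 14.4, 10.4 and 14.7 CPM in sham and at 4.40, 2.15 and 6.71 CPM in TBI mice, 33.6% in the mean. Hes5, a target of Notch signalling in neural progenitors and astrocytes, was at 3.92, 4.45 and 4.81 CPM in sham and at 1.66, 2.24 and 1.65 CPM in TBI mice. Kirrel2, Gucy2g and Hes5 met the rule under all 6 omissions.

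**Figure D3:**
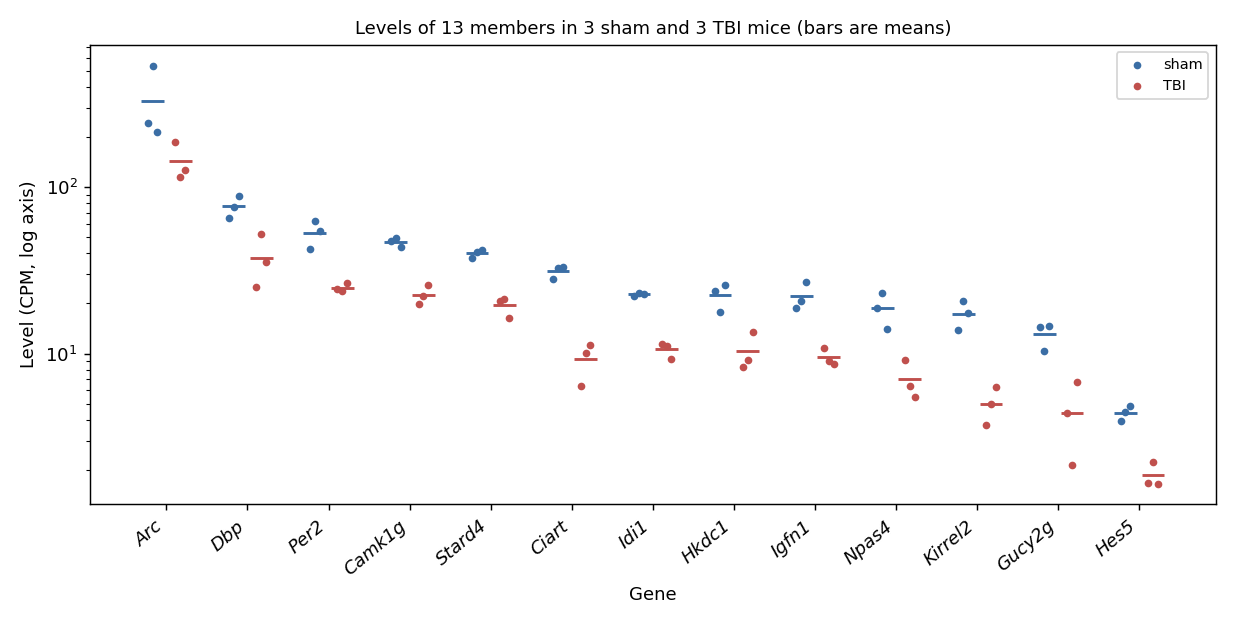
Levels in CPM (log axis) of 13 members in 3 sham mice (blue) and 3 TBI mice (red), with each point a mouse and each bar a group mean. No blue point lies below a red point of the same gene, as the rule requires, and the sham points of Arc are the most unequal, from 214 to 539 CPM.

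Some members are known mainly from muscle. Igfn1, a sarcomere-associated protein, was at 18.8, 20.7 and 27.0 CPM in sham and at 10.8, 9.06 and 8.60 CPM in TBI mice. Klhl40, a stabiliser of thin filament proteins, was at 42.8% of sham, from a sham mean of 8.91 ± 0.387 CPM (SD, n = 3) to 3.81 ± 1.32 CPM. Jsrp1, of the junctional sarcoplasmic reticulum, went from 8.06 ± 2.07 to 3.43 ± 0.961 CPM (SD, n = 3). None of the 13 skeletal muscle markers with a sham mean of at least 0.5 CPM was a member, where 0.769% of all genes met the numbers of the rule. The summed level of the muscle list was 157 to 175 CPM in sham and 163 to 189 CPM in TBI mice.

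Others are known from sensory cells. They were picked after their values were seen and from no list, so no share of such genes is given. Arr3, the arrestin of cones, went from 1.67 to 0.511 CPM in the mean, and Rcvrn, the calcium sensor recoverin of photoreceptors, from 0.523 to 0.201 CPM. Opn3, an opsin of brain and other tissues, went from 4.39 ± 0.447 to 2.08 ± 0.420 CPM (SD, n = 3). Ocm, a calcium-binding protein of outer hair cells, was at 0.693, 1.53 and 0.767 CPM in sham and at 0.205, 0.0426 and 0.582 CPM in TBI mice, and Espnl, an espin-like protein of hair cell bundles, was at 1.30, 0.851 and 1.45 CPM in sham and at 0.246, 0.384 and 0.373 CPM in TBI mice. These levels rest on few counts. The olfactory receptor genes Olfr78 and Olfr464 were at 31.9% and 40.1% of sham.

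Receptors, transcription factors and secreted proteins were represented by single genes. Of 39 receptors for monoamines and acetylcholine at 0.5 CPM or more 1 (2.56%) was a member, where 0.769% of all genes met the numbers of the rule. This was Chrna6, a nicotinic acetylcholine receptor subunit best known from dopamine neurons. Its counts were 18, 40 and 20 in sham and 0, 8 and 4 in TBI mice, and without sham mouse 2 its sham mean was below the 0.5 CPM minimum. Glp2r and Pth2r, receptors for peptide hormones, were at 47.3% and 44.3% of sham. Ovol2, a zinc finger factor of epithelia, was at 45.3% and Twist2, a factor of mesenchyme, at 49.0%. L3mbtl1 and L3mbtl4, which encode MBT-domain proteins of chromatin, were at 46.5% and 42.0%. Gp9, a subunit of the platelet receptor for von Willebrand factor, was at 28.1%, and Adamts13, the protease that cuts that factor, at 47.6%. Erfe, a hormone made by erythroid precursors that represses hepcidin, was at 27.9%. Gp9 and Erfe met the rule under all 6 omissions, and Pth2r, L3mbtl1 and L3mbtl4 under 5. Glp2r, Twist2 and Adamts13 met it under 4 and Ovol2 under 3. Erfe and Twist2 were near the minimum of the rule, with sham means of 0.887 and 0.666 CPM. Glp2r shares exon bases with Gas7, and Erfe with Ilkap.

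The lowest levels relative to sham were those of genes of low level or of uncertain counting. Gm11738 (ENSMUSG00000085511), a transcript antisense to Dnah17, had 30, 41 and 18 counts in sham and 0, 0 and 4 in TBI mice, 4.92% of sham, whereas Dnah17 was at 77.6%. 1700047I17Rik2 was at 3.49, 8.51 and 3.94 CPM in sham and at 0.637, 0.533 and 0.699 CPM in TBI mice. It is also uncertain, as its mean was 38.0 CPM in TBI mice of the 2022 table. The antisense transcript 9130017K11Rik was at 18.8% of sham, with values of 0.213 to 0.233 CPM in TBI mice. Gm25857, CT025671.2 and Gm18930, annotated as a small nucleolar RNA and processed pseudogenes, were at 22.2%, 22.4% and 23.6%.

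Transcripts without a protein were common among the members. Of the 126, 64 (50.8%) were protein coding, against 85.8% of genes at 0.5 CPM or more, and 51 (40.5%) were long noncoding or of unspecified type, against 9.86%. Between 0.5 and 2 CPM, 41.6% of the members and 53.3% of all genes were coding. Of the 37 members at 2 CPM or more, 27 (73.0%) were coding, against 93.1% of all genes at that level. No test was made of these shares. The most abundant of the unnamed transcripts, C730002L08Rik, was at 20.7, 9.19 and 18.6 CPM in sham and at 5.65, 5.61 and 8.90 CPM in TBI mice, so that its groups were close to overlapping. Gm48957 was at 31.7% of sham and Gm20063 at 47.4%. Of 364 zinc finger genes named Zfp at 0.5 CPM or more 1 (0.275%) was a member, Zfp804b, at 38.0% of sham. Of all genes at that level 0.769% met the numbers of the rule. By position on GRCm38, 64 members overlapped another gene, 53 on the opposite strand, and 39 shared exon bases with one. Whether counting used the strand is not given in the sources used here, so reads of a member and of its partner cannot be told apart. Of these, 31 had a partner at 0.5 CPM or more, and the 30 partners that were no members had a median of 85.7% of sham (54.0% to 256%). Pcsk2os2, for instance, was at 39.2% of sham and Pcsk2 at 65.7%.

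On GRCm38, 27 members lay within 1 Mb of another member, in 11 clusters. The share for other sets of genes is not given here, so this count is a description only. Lemd1 and AC124108.1, which form a cluster of their own, share exon bases. The largest held 5 members on chromosome 1, Espnl, Erfe, Per2, Gm29100 and Twist2, within 525 kb. The 10 genes at 0.5 CPM or more in that stretch were not all lower, since Klhl30 was at 138% of sham, Ilkap at 108%, Hes6 at 103%, Traf3ip1 at 85.9% and Asb1 at 77.7%. Gm29100 and Twist2 overlap each other.

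At 0.5 CPM or more 0.769% of all genes met the numbers of the rule, so a short list is likely to hold none. Of the 31 lists of genes, 26 held no member, which is given as a description only. Among these, the medians of the log2 ratio of TBI to sham were -0.30 for 15 neuronal markers, -0.38 for 15 markers of upper cortical layers, -0.26 for 20 neuropeptides and -0.33 for 35 neuropeptide receptors. Summed neuronal markers were at 15564 to 15764 CPM in sham and at 10460 to 13700 CPM in TBI mice, and summed markers of activated microglia and macrophages at 55.8 to 60.0 CPM and 1157 to 2502 CPM. Astrocyte markers summed to 4724 to 5355 CPM in sham and 8667 to 9199 CPM in TBI mice. The choroid plexus list summed to 257, 314 and 1746 CPM in sham, with sham mouse 1 apart from the others, and to 1860 to 2208 CPM in TBI mice. The thalamus list summed to 520 CPM in TBI mouse 2 and to 183 to 252 CPM in the other 5 mice. The striatum list summed to 1347, 1266 and 2446 CPM in sham and to 810, 3104 and 929 CPM in TBI mice. It was thus highest in sham mouse 3 and in TBI mouse 2. The sums of neuronal, microglial and astrocyte markers differed between sham and TBI mice. Those of choroid plexus, thalamus and striatum also differed widely between mice of the same group. The part of all these sums in the members' values was not tested. Of the 126 members, 106 met the rule without sham mouse 1, 115 without sham mouse 3 and 108 without TBI mouse 2.

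The zileuton libraries ask whether these genes differed in injured mice given the inhibitor, and the rule made no use of them. All 126 members were in the 2022 table, but 73 had a mean below 0.5 CPM in its TBI mice and 2 were at 0 in all 6 libraries. After the filter on low counts 78 were tested with edgeR. None passed an adjusted p of 0.05, and neither did any other of the 17363 genes tested; the smallest adjusted p was 0.713 among members and 0.186 among all genes. At an unadjusted p under 0.05, 4 members (5.13%) passed, where 6.83% of all genes did. Of these, 3 were higher with zileuton, where 2.93% of all genes were, and 1 was lower, where 3.9% of all genes were. DESeq2 gave 2 members at an unadjusted p under 0.05 and 0 at an adjusted one. Over all genes the count past an adjusted p of 0.05 depended on the tool and the filter, with 26 genes in DESeq2, 4 in edgeR on every gene with a count, and 3 or 4 in limma on TPM, none of them a member. Of the tested members 44 were higher and 34 lower with zileuton, with a median log2 difference of 0.09, against 0.00 over all genes. Without TBI library 6 of the 2022 table that median was -0.003. In 5 of the 78 tested members every zileuton mouse was above every TBI mouse and in 1 every zileuton mouse was below, where 6.52% and 7.43% of all genes tested did so. The members' errors were large, with a median SE of 0.359 against 0.134 over all genes.

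Npas4 was at 5.26, 2.79 and 4.53 CPM in the TBI mice of 2022 and at 5.84, 5.89 and 7.38 CPM with zileuton. All zileuton mice were higher, by 0.62 on the log2 scale (SE 0.239, unadjusted p = 0.0303, adjusted p = 0.713, edgeR). Without TBI library 3, 6 or zileuton library 6 the unadjusted p was 0.0771, 0.0502 or 0.107. Arc was at 175, 51.5 and 128 CPM in TBI and at 145, 153 and 196 CPM with zileuton, and these groups overlapped (log2 difference 0.50, SE 0.363, adjusted p = 0.760, edgeR). The log2 difference of Arc was 0.89 (unadjusted p = 0.0331, edgeR) without TBI library 2, the highest of the TBI mice, and 0.15 (unadjusted p = 0.449, edgeR) without TBI library 3, the lowest. Egr1 had a log2 difference of 0.39 and Nr4a1 of 0.62, with adjusted p-values of 0.713 and 0.735 in edgeR. Over the 41 immediate early genes 1 was lower and 1 higher at an unadjusted p under 0.05, and the median log2 difference was 0.02.

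The clock members did not separate by treatment. Ciart was at 24.1, 24.8 and 23.7 CPM in TBI mice and at 20.3, 21.8 and 28.5 CPM with zileuton, with a log2 difference of -0.03 (SE 0.141, adjusted p = 0.967, edgeR). Per2 was at 36.2, 37.5 and 28.4 CPM and at 31.5, 31.4 and 35.8 CPM, and Dbp at 87.2, 103 and 106 CPM and at 90.0, 98.0 and 96.2 CPM. Their log2 differences were -0.04 (SE 0.127) and -0.05 (SE 0.0968). The clock list had a median of -0.02 over 17 genes, of which 1 was lower and 1 higher at an unadjusted p under 0.05. These were Nfil3 (-0.40, SE 0.159, unadjusted p = 0.0339) and Nr1d1 (0.21, SE 0.0856, unadjusted p = 0.0385), both with an adjusted p of 0.713 in edgeR.

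Among the sterol members, Stard4 was at 17.5 ± 2.74 CPM in TBI mice and at 19.8 ± 2.54 CPM with zileuton (SD, n = 3), and its groups overlapped. The log2 difference of Stard4 was 0.19 (SE 0.156), of Idi1 -0.004 (SE 0.108) and of Fdps 0.005 (SE 0.108). Of the 21 sterol genes 2 were higher and 0 lower at an unadjusted p under 0.05, namely Srebf2 (0.23, SE 0.0678, unadjusted p = 0.00886) and Lss (0.26, SE 0.0935, unadjusted p = 0.0229), both with an adjusted p of 0.713 in edgeR. The median of the list was 0.08.

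The other members with a small unadjusted p were of low level. AC124108.1, which shares exon bases with the member Lemd1, was at 2.43, 2.45 and 2.46 CPM in TBI mice and at 3.97, 3.20 and 3.65 CPM with zileuton (log2 difference 0.56, SE 0.176, unadjusted p = 0.0126, adjusted p = 0.713, edgeR). Its unadjusted p was 0.0924 in limma on log2(TPM + 0.1) and 0.0795 in limma on log2(TPM + 1). With a replicate block and the trend over gene length removed it was 0.0676 in edgeR. AC124108.1 met the rule for members under only 2 of the 6 omissions. Gp9 was at 0.209, 0.169 and 0.323 CPM and at 0.470, 0.496 and 0.376 CPM (0.95, SE 0.415, unadjusted p = 0.0497, edgeR). Adamts13 was lower in every zileuton mouse, at 0.537, 0.310 and 0.478 CPM against 1.01, 0.790 and 0.682 CPM (-0.89, SE 0.351, unadjusted p = 0.0337, edgeR). Adamts13 lost this level without TBI library 2 or 3 or zileuton library 3 or 6, and Gp9 without 5 of the 6 libraries in turn. The next members by p were 9130017K11Rik (0.83), Gucy2g (0.36), Hkdc1 (0.27), Dalir (-0.48) and Olfr464 (0.96), and none of them had an unadjusted p under 0.05. Camk1g had a log2 difference of 0.18 (SE 0.163), which was 0.39 (unadjusted p = 0.0136, edgeR) without TBI library 2 and 0.09 without TBI library 3 or 6 (unadjusted p = 0.640 and 0.622, edgeR).

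**Figure D4:**
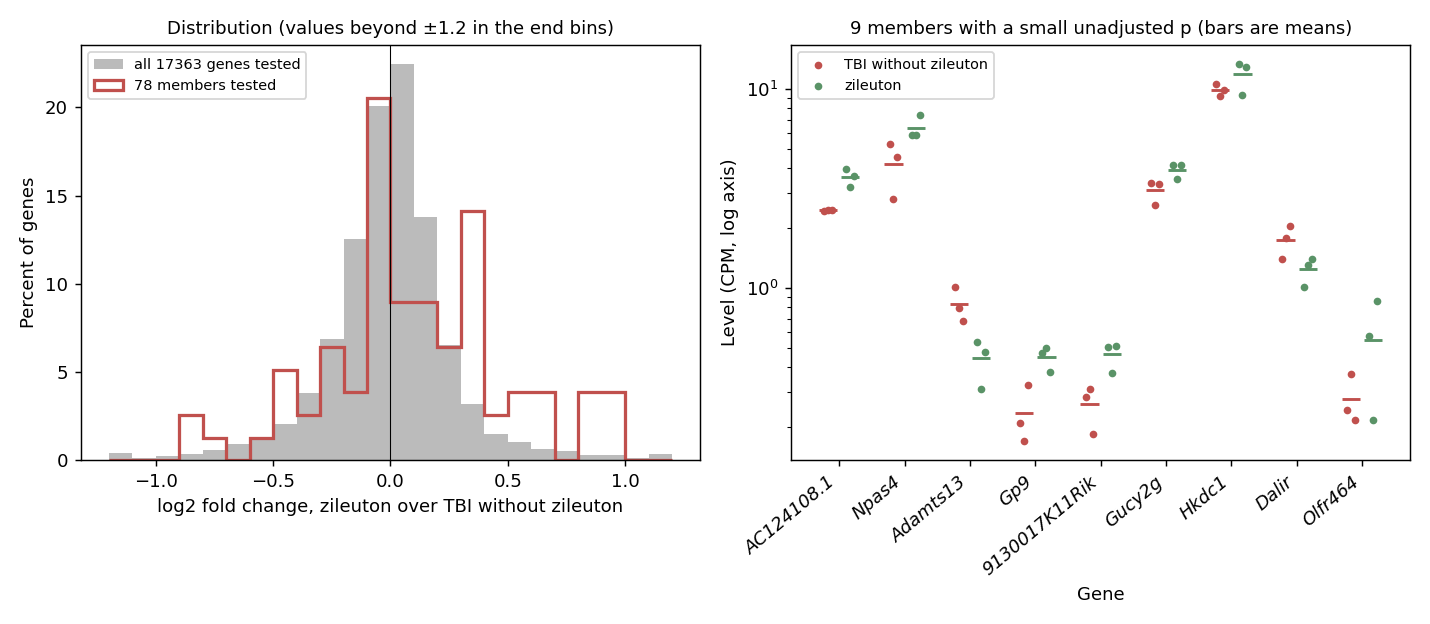
Left, the percent of genes (vertical axis) by log2 fold change of zileuton over TBI without zileuton, for all 17363 genes tested (grey) and the 78 members tested (red line). Right, levels in CPM (log axis) of 9 members with a small unadjusted p in 3 TBI mice (red) and 3 zileuton mice (green), where 6 of the genes show no overlap and the bars are means.

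In these libraries too the marker sums differed between mice. Markers of activated microglia and macrophages summed to 1330 to 2750 CPM in TBI mice and 885 to 1611 CPM with zileuton, and neuronal markers to 10435 to 12455 CPM and 11227 to 12043 CPM. Choroid plexus markers summed to between 204 and 1827 CPM in TBI mice and between 303 and 2402 CPM with zileuton. Across all genes the log2 difference between the groups rose with gene length (Spearman 0.377 over the genes tested, which share the same 6 libraries). With that trend removed 3 members were higher and 0 lower at an unadjusted p under 0.05. The part of these differences in the members' values was not tested.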

How the data were processed

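RNA of 12 mouse brain samples was sequenced as read pairs after poly(A) selection. For the 2018 libraries the authors deposited whole-number counts of reads per gene and FPKM made from them. For the 2022 libraries the authors deposited estimated counts, of which 13.7% were not whole, and TPM. The estimated counts were rounded to whole numbers before testing. The submitters' processing notes name HISAT2, featureCounts of Subread, DESeq2 and GRCm39, with no versions given in the sources used here and no statement of strand. Low counts (1 to 20) of the 2018 libraries were even in 62.3% to 64.4% of cases, and 1 count may thus be less than 1 fragment. The 2022 columns, numbered 2, 3 and 6, were assigned to groups by their names, and the sources used here do not tie them to single samples.

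CPM were counts over library totals. Counts were tested with edgeR 4.0.16 in R 4.3.3 (TMM factors, filterByExpr, quasi-likelihood test), within each batch year, with Benjamini-Hochberg adjustment over all genes tested and a threshold of 0.05. SE is the log2 fold change over the square root of its F statistic. The fits were tested on simulated data. Alternatives were DESeq2 1.42.0 as a test or for size factors, library totals, other filters on low counts, a replicate block, and leaving out each library. Further ones were limma 3.58.1 on log2(value + 1) of FPKM or TPM and on log2(TPM + 0.1), at a mean of at least 0.5. The gene length trend was removed for the 2022 libraries only. The members, the 31 gene lists and the alternatives were chosen with earlier results of these data known, and the sterol list was added after the members' values were seen.

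Named were the 10 members lowest relative to sham, the 10 highest in sham, up to 6 (or the 4 highest) of each list, the 10 with the smallest p for zileuton, the genes nearest the limit and the largest cluster of neighbours. A few genes that these rules name are not reported here. The coding members of muscle, sensory cells, receptors and transcription factors, and Pcsk2os2, were named after their values were seen. Gene types, overlaps and distances came from GENCODE M21 on GRCm38, another build than that of the files, and promoters from RefSeq on GRCm38.p6. Symbols matched 34808 of 35697 identifiers. Same-numbered sham and TBI libraries did not deviate together (correlations of -0.02, -0.10 and -0.04), nor did those of 2022 (-0.28, 0.06 and -0.28). As nothing more is said of the mice, p-values measure the spread between these samples. Plots were made in matplotlib 3.10.9 (Python 3.11.15).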

Additional observations from a re-analysis of the deposited data

How the results depend on the processing

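The rule found 169 genes with TMM-scaled CPM, all 126 members among them, 170 when the groups could overlap, 73 with a sham minimum of 1 CPM and 331 with a minimum of 0.1 CPM. Leaving out 1 mouse, which can only loosen the part of the rule on overlap, gave 163 to 218. The most were found without TBI mouse 2 (218), sham mouse 2 (202), TBI mouse 1 (193) and TBI mouse 3 (191). With zileuton, no member passed the adjusted threshold under any alternative run, and the median log2 difference stayed within -0.003 to 0.20. The 1 member lower at an unadjusted p under 0.05 became 0 with DESeq2, with the gene length trend removed, and in leave-one-out fits (0 to 1), and 2 when members were chosen on TMM-scaled CPM. The 3 that were higher became 2 to 6 in leave-one-out fits, 6 without TBI library 2. With a replicate block by the shared numbers 0 were lower and 2 higher, and with the block and the length trend removed 0 were lower and 1 higher. The cause of these differences was not tested. Over all genes, 5479 passed the adjusted threshold between sham and TBI, 4337 with the replicate block and 3848 to 6017 under all alternatives. Of the sterol genes that are no members 13 to 15 were lower and 0 higher under every alternative, of the clock genes 7 to 9 were lower, and of the immediate early genes 8 (limma) to 19 (DESeq2). The 89 members below 2 CPM rest on few counts, which limits their precision.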
